A study of Homo sapiens with 6 samples.

Results

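Matrix metalloproteinases (MMPs) and their tissue inhibitors (TIMPs) were examined in senescent human fibroblasts depleted of the long noncoding RNA sin-lncRNA. The members were chosen by symbol: the MMPs MMP1, MMP2, MMP3, MMP10, MMP14 and MMP16 and the inhibitors TIMP1, TIMP2, TIMP3 and TIMP4. They are 10 of the 57819 genes in the deposited table, and all 10 had enough reads to be tested. The cells were IMR90 human lung fibroblasts carrying ER:Ras. In ER:Ras, oncogenic Ras is joined to part of the estrogen receptor and is switched on by 4-hydroxytamoxifen (4OHT). All 6 libraries came from cells given 200 nM 4OHT for 3 days, which drives them into senescence. Of these, 3 came from cells given a scrambled control siRNA (siSCR, the controls) and 3 from cells given an siRNA against sin-lncRNA (the knockdowns). The study depleted this lncRNA to learn what it does in senescent cells. Cells without 4OHT were not analysed here, so all values are from 4OHT-treated cells. The knockdown is named si1 in the sample descriptions and si1.3 in the columns of the table. The ending is not explained, so how many siRNA sequences were used is not known here.

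MMPs are zinc-dependent proteases that are made as inactive precursors and cut the proteins of the extracellular matrix once their prodomain is removed. TIMPs bind the active site of MMPs and block it, so the balance of the families sets how much matrix is degraded. Senescent fibroblasts are known for secreting MMPs as part of the senescence-associated secretory phenotype. MMP1 cuts fibrillar collagens, MMP3 and MMP10 are stromelysins with broad substrates, and MMP2 is a gelatinase that cuts basement membrane collagen and denatured collagen. MMP14 and MMP16 sit in the plasma membrane, where MMP14 activates the MMP2 precursor with the help of TIMP2.

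Among the inhibitors TIMP2 fell to 51.7% of its control level after sin-lncRNA knockdown, TIMP1 to 72.6% and TIMP3 to 80.0%. The membrane protease MMP14 fell to 81.2%, while MMP2, the protease it activates, rose to 115% of control. MMP1, MMP3 and MMP10 had levels between 97.3% and 98.0% of control and did not pass the test. MMP16 (91.4% of control) and TIMP4 (78.0%) did not pass it either. Thus 5 of the 10 members were called, 1 higher and 4 lower (limma on log2 values, Benjamini-Hochberg adjusted p under 0.05). Of all 19048 genes tested, 41.0% were called, 17.5% higher and 23.5% lower, and among genes with a mean of at least 50 normalized reads 48.5% were. The number of members called therefore lies near the background and is no result about the members as a group. Control and knockdown libraries did not overlap for 6 of the 10 members and for 51.1% of all genes tested. Lack of overlap is thus also near the background. Their median log2 fold change was -0.22, against -0.04 for all genes tested. In bulk RNA, fewer cells that make a transcript and less of it per cell cannot be told apart.

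**Figure D1:**
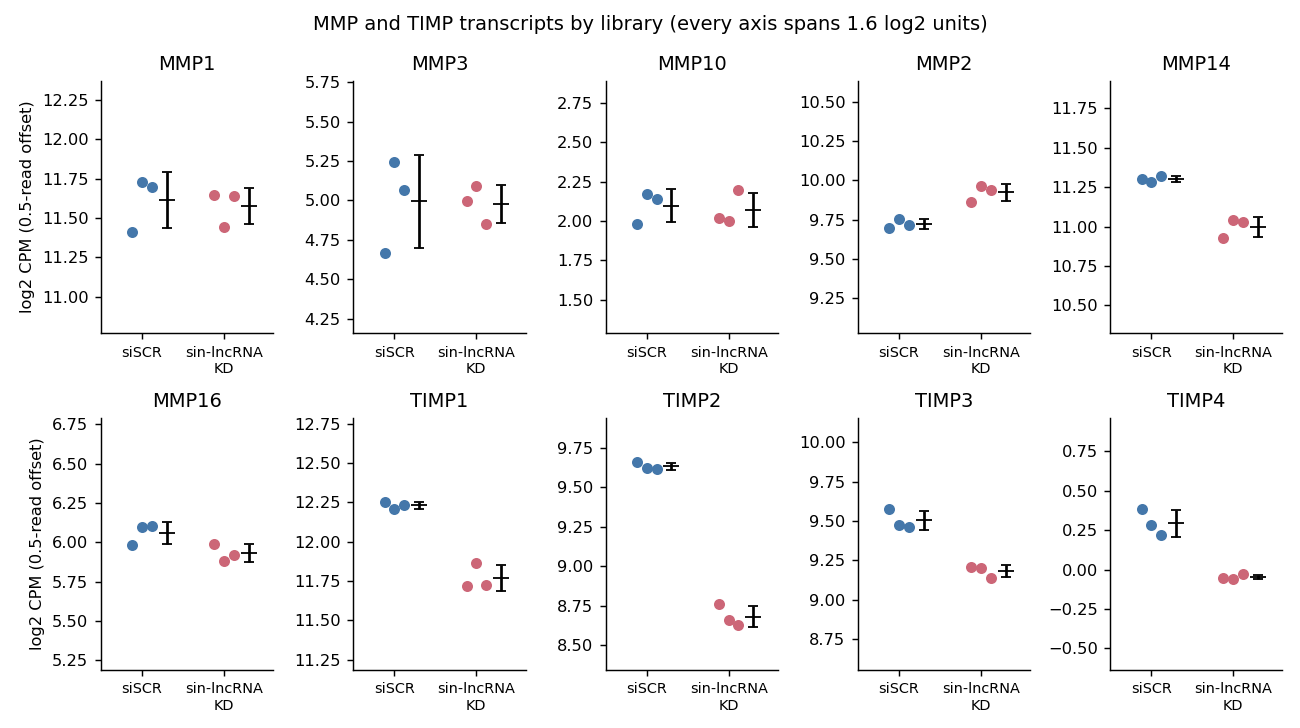
Each panel gives a gene's deposited log2 CPM in the 3 siSCR and 3 sin-lncRNA KD libraries (points, in replicate order), with the mean and SD of each group beside them. TIMP1, TIMP2, TIMP3 and MMP14 lie lower in every knockdown library than in every control and MMP2 higher, while the points of MMP1, MMP3, MMP10 and MMP16 overlap; TIMP4 does not overlap but did not pass the test.

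Promoter sequences were available in a RefSeq table (GRCh38.p14) for 5 of the 10 members: MMP10, MMP14, TIMP1, TIMP3 and TIMP4. The entries for MMP1, MMP2, MMP3, MMP16 and TIMP2 were missing. Each sequence runs from 250 bases before the transcript start to 50 after it. The promoters of the 3 genes that were called lower and had an entry are shown, though whether they share regulation was not tested. That of MMP10 is shown as an example that did not pass the test. TIMP4 did not pass it either, and its promoter is not shown. Capitals mark matches to TGANTCA, the element bound by AP-1 (searched on both strands, which read alike), or to its variant TGAGTAA with the reverse complement TTACTCA. The variant was added after the sequences had been seen.
TIMP1, chrX:47582186-47582485, plus strand: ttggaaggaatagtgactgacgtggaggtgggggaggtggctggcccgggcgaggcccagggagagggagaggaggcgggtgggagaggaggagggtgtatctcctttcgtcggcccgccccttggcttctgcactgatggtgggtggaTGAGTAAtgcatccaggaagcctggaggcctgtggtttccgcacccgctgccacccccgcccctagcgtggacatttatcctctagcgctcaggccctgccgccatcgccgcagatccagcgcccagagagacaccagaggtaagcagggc
TIMP3, chr22:32801455-32801754, plus strand: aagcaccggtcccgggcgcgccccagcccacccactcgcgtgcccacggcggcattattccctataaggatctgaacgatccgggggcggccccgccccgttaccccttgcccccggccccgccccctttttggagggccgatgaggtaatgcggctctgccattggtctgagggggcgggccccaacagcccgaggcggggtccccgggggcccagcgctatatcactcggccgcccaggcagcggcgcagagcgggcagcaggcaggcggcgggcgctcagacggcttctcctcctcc
MMP14, chr14:22836335-22836634, plus strand: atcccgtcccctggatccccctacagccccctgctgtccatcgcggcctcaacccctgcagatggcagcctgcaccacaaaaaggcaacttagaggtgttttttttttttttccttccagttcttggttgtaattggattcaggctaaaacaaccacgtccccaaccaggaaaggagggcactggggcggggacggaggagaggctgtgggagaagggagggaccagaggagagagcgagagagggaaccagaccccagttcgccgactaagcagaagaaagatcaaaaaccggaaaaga
MMP10, chr11:102780579-102780878, minus strand: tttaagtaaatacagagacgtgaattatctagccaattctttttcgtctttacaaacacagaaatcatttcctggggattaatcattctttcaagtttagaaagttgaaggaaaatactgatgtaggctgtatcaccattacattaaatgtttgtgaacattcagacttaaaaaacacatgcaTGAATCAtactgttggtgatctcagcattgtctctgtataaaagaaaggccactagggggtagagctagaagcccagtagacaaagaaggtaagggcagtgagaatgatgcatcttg

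TGANTCA occurred in 1 of the 5 promoters, that of MMP10, where its first base lies at -67 from the start. It occurs in 7.71% of the 35116 promoters of the table. The variant occurred in the TIMP1 promoter, at -101, and in 2.57% of all promoters. The promoter of TIMP4, which did not pass the test either, held neither the element nor the variant. These are matches of letters and not measured sites. The promoters also differed in base composition: the share of G and C was 36.3% in MMP10, 55.0% in MMP14, 65.0% in TIMP1, 64.0% in TIMP4 and 72.7% in TIMP3, against a median of 58.7% over all promoters.

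The libraries held 30271192 to 50913672 reads in genes in controls and 22117324 to 27882280 in knockdowns, so every knockdown library was shallower. The labels do not say whether replicates were separate cultures, so p-values rest on the spread between these libraries. In limma each gene's variance is drawn towards that of genes with a similar level. Its SE and p-value thus do not reflect its own spread alone. Levels are given in RPM, a gene's reads scaled to the effective size of its library on the scale of CPM. Where no read was found, up to 3 could have been missed, which is 0.0596 to 0.134 RPM across libraries and covers counting error only. The targeted lncRNA averaged 4.17 ± 0.52 RPM in controls and 0.556 ± 0.076 in knockdowns (SD, n = 3). Its log2 fold change was -2.86 (limma, adjusted p = 7.94e-07). All 10 fibroblast markers were detected in every library, at a summed level of 15318 to 16498 RPM in controls and 10853 to 11275 in knockdowns. Of these markers 4 rose and 5 fell, where 41.0% of all genes tested were called, or 48.5% at a mean of at least 50 normalized reads. The largest drops in level were those of COL1A1 (mean 6617 to 3599 RPM) and COL1A2 (3695 to 2167 RPM). What part the shift in markers has in the results was not tested. Summed markers of other cells stayed low, at 0.314 to 0.533 RPM for 5 epithelial genes (KRT5 at 0 throughout) and 0.166 to 0.641 RPM for 4 haematopoietic genes. The 2 endothelial genes measured reached 1.67 to 1.83 RPM in controls and 2.20 to 2.60 in knockdowns, nearly all of it VWF (49 to 90 reads per library). VWF was called higher (log2 fold change 0.42, SE 0.14; limma, adjusted p = 0.0342).

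TIMP2, which both inhibits MMP2 and helps MMP14 to activate it, had the largest fall of the members. Its level was 808, 787 and 786 RPM in control replicates 1, 2 and 3 and 433, 403 and 395 RPM in knockdown replicates 1, 2 and 3. All knockdown libraries lay far below all controls. The log2 fold change was -0.95 (SE 0.04; limma, adjusted p = 1.28e-07), and 1.56% of all genes tested had a lower value. The exact permutation test over libraries gave p = 0.1, the smallest that 3 against 3 allow, as for every gene whose groups do not overlap. TIMP2 (ENSG00000035862.8) lies on the minus strand of chromosome 17 from 76849059 to 76921469 (hg19, the build in the submitters' processing notes). Its locus also holds DDC8 (now CEP295NL) on the same strand, with 198 shared exon bases in GENCODE 29, and a transcript on the other strand shares 367 bases, 6.52% of TIMP2's exons. DDC8 was listed at 0.249 ± 0.083 RPM in controls and 0.441 ± 0.082 in knockdowns (SD, n = 3), and did not pass the test (adjusted p in limma, 0.0762).

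TIMP1, the secreted inhibitor that fibroblasts make in large amounts, had the highest level per length of all members. It stood at 4885, 4735 and 4809 RPM in control replicates 1, 2 and 3 and at 3371, 3725 and 3385 RPM in knockdown replicates 1, 2 and 3. All knockdown libraries lay below all controls, and knockdown replicate 2 was the nearest to them. The log2 fold change was -0.46 (SE 0.05; limma, adjusted p = 3.55e-05). TIMP1 (ENSG00000102265.7) lies on the plus strand of the X chromosome from 47441712 to 47446188, inside SYN1, a synaptic vesicle gene on the other strand. These genes share 0 exon bases in GENCODE 29. SYN1 fell as well, from 2.94 ± 0.11 RPM in controls to 1.40 ± 0.30 in knockdowns (SD, n = 3; limma, adjusted p = 0.000537). Whether the deposited counts used strand is not given in the sources used here, so reads in SYN1 cannot be assigned to a strand. At these levels they are few beside those of TIMP1.

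TIMP3, the inhibitor that stays bound to the matrix and also blocks several ADAM and ADAMTS proteases, fell less. Its level was 762, 712 and 707 RPM in control replicates 1, 2 and 3 and 592, 589 and 564 RPM in knockdown replicates 1, 2 and 3. Every knockdown library lay below every control. The log2 fold change was -0.32 (SE 0.04; limma, adjusted p = 0.000191). TIMP3 (ENSG00000100234.11, chromosome 22, 33197687 to 33259030, plus strand) lies inside SYN3, which is transcribed from the other strand and was listed at 0.071 ± 0.015 RPM in controls.

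TIMP4, an inhibitor best known from heart and other tissues, was near the lower limit of measurement with 21 to 58 reads per library. Its level was 1.29, 1.20 and 1.15 RPM in control replicates 1, 2 and 3 and 0.941, 0.939 and 0.962 RPM in knockdown replicates 1, 2 and 3. The groups did not overlap, and the log2 fold change of -0.34 did not pass the test (SE 0.18; limma, adjusted p = 0.149). With the intensity trend left out of the variance model it passed (limma, adjusted p = 0.00988), while adjusted p in limma ran from 0.136 to 0.45 in the other alternative fits. Its 95% interval ran from -0.73 to 0.05, which holds the values of TIMP1 and TIMP3. TIMP4 shares 170 exon bases, 10.3% of its own, with SYN2 on the other strand. SYN2 was more abundant, at 10.1 ± 0.6 RPM in controls and 8.70 ± 1.86 in knockdowns (SD, n = 3), so TIMP4 reads are uncertain.

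MMP14 was the membrane protease with the highest level. It stood at 2520, 2493 and 2559 RPM in control replicates 1, 2 and 3 and at 1946, 2105 and 2093 RPM in knockdown replicates 1, 2 and 3. The controls lay close together, and all knockdown libraries were lower. The log2 fold change was -0.30 (SE 0.04; limma, adjusted p = 0.000312). MMP14 (ENSG00000157227.8; chromosome 14, 23305766 to 23318236, plus strand) overlaps no other gene of the table. MMP16, the other membrane protease, had 63.1, 68.5 and 68.6 RPM in control replicates 1, 2 and 3 and 63.6, 58.9 and 60.5 RPM in knockdown replicates 1, 2 and 3. Its groups overlapped through control replicate 1, and the log2 fold change of -0.13 did not pass the test (SE 0.05; 95% interval -0.25 to -0.01; limma, adjusted p = 0.0739). Without control replicate 1 it was -0.17 and passed (limma, adjusted p = 0.0269).

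MMP2, the gelatinase, was the member that rose. Its level was 828, 864 and 842 RPM in control replicates 1, 2 and 3 and 932, 1000.3 and 981 RPM in knockdown replicates 1, 2 and 3. Every knockdown library lay above every control, although the shift was small. The log2 fold change was 0.20 (SE 0.04; limma, adjusted p = 0.00298). MMP2 (ENSG00000087245.8; chromosome 16, 55423612 to 55540603, plus strand) shares 174 exon bases with another gene model on its strand in GENCODE 29.

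MMP1, the interstitial collagenase, was the most abundant MMP and varied between replicates more than it differed between groups. Its level was 2717, 3400 and 3318 RPM in control replicates 1, 2 and 3 and 3203, 2786 and 3191 RPM in knockdown replicates 1, 2 and 3. The lowest library of all was control replicate 1 and the highest control replicate 2, so the groups overlapped fully. The log2 fold change was -0.04 (SE 0.08; 95% interval -0.22 to 0.15; limma, adjusted p = 0.767), on 65271 to 166969 reads per library.

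Neither stromelysin among the members passed the test. MMP3 had 25.4, 38.0 and 33.5 RPM in control replicates 1, 2 and 3 and 31.9, 34.1 and 28.9 RPM in knockdown replicates 1, 2 and 3. Its log2 fold change was -0.01 (SE 0.12; 95% interval -0.28 to 0.26; limma, adjusted p = 0.939). MMP10 had 3.94, 4.50 and 4.39 RPM in control replicates 1, 2 and 3 and 4.03, 3.97 and 4.56 RPM in knockdown replicates 1, 2 and 3. Its log2 fold change was -0.03 (SE 0.11; 95% interval -0.27 to 0.22; limma, adjusted p = 0.867). In both genes, as in MMP1, control replicate 1 was the lowest of all 6 libraries. The libraries overlapped between groups for each of them. The signs of the small values of these 3 genes depended on single libraries and, for MMP3 and MMP10, on the scaling (library totals gave 0.00481 for MMP3, quantile normalization 0.032 for MMP3 and 0.044 for MMP10).

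**Figure D2:**
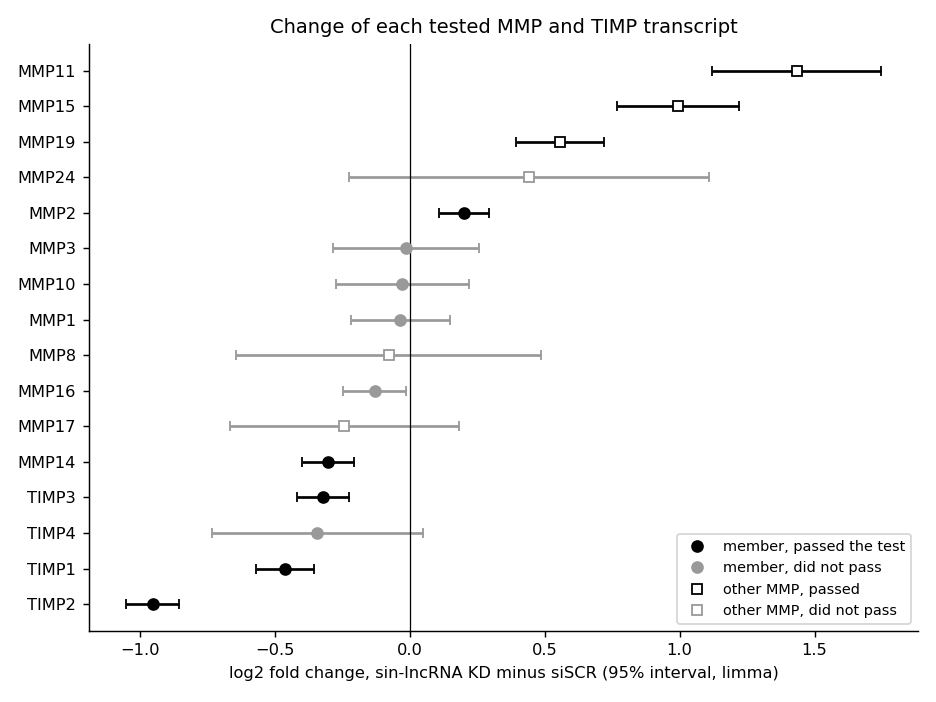
The horizontal axis gives the log2 fold change of each tested MMP and TIMP with its 95% interval; circles are members, squares are other MMPs, and black marks those that passed the test. TIMP2 lies lowest at -0.95 and MMP11 highest at 1.43, and the intervals of MMP1, MMP3 and MMP10 include 0.

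These 3 genes are neighbours. In the table's coordinates MMP10 (102641234 to 102651359), MMP1 (102660651 to 102668891) and MMP3 (102706532 to 102714534) follow each other on the minus strand of chromosome 11. They belong to a cluster of 9 MMP genes that spans 435 kb. MMP8, a neutrophil collagenase in the same cluster, had 21 to 48 reads per library and did not pass the test (log2 fold change -0.08, SE 0.26; limma, adjusted p = 0.835). The remaining 5 genes, MMP7, MMP12, MMP13, MMP20 and MMP27, had at most 12 reads in any library and were not tested. WTAPP1, a pseudogene on the other strand, overlaps MMP10, MMP1 and MMP3 in the table and shares 150 exon bases, 7.61% of the total, with MMP1. It had 0.629 ± 0.198 RPM in controls and 0.578 ± 0.163 in knockdowns (SD, n = 3), far under MMP1.

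Compared per length, as RPM per kilobase of exon (RPKM), the members spanned more than 3 orders of magnitude. In controls the order was TIMP1 (3121 ± 49 RPKM), MMP1 (1596 ± 189), MMP14 (565 ± 7), MMP2 (171 ± 4), TIMP3 (158 ± 7), TIMP2 (141 ± 2), MMP3 (15.8 ± 3.1), MMP16 (5.51 ± 0.26), MMP10 (2.43 ± 0.17) and TIMP4 (0.736 ± 0.043; SD, n = 3). The order was the same in knockdowns, and no neighbours in it overlapped between libraries in either group. MMP2, TIMP3 and TIMP2 lay near each other in controls, with libraries at 168 to 175, 154 to 166 and 140 to 144 RPKM. In knockdowns they were further apart, at 197 ± 7 RPKM for MMP2, 126 ± 3 for TIMP3 and 72.8 ± 3.5 for TIMP2. Exon length was the union of all GENCODE 29 exons of a gene, which lowers the level of genes with many long isoforms.

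**Figure D3:**
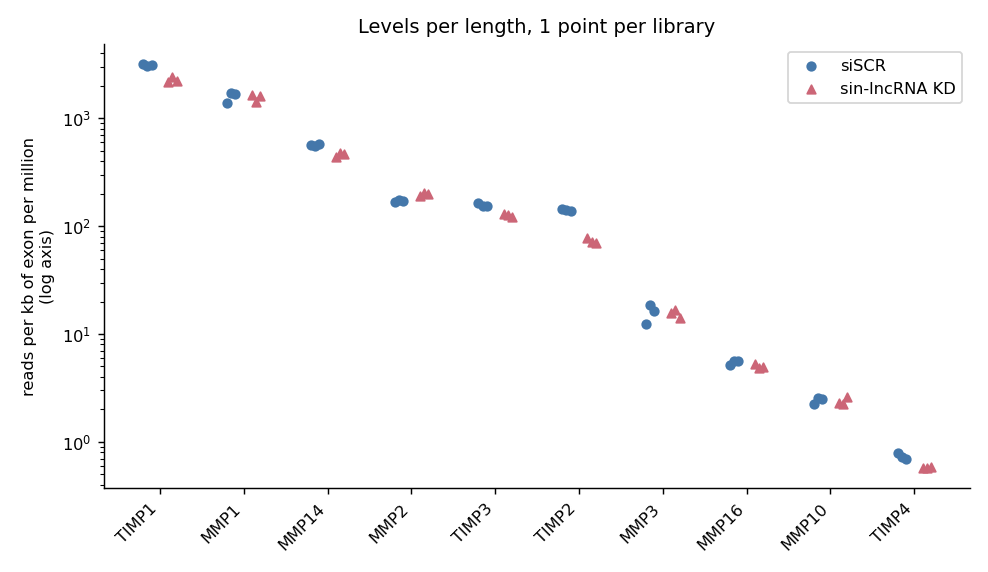
The vertical axis gives RPKM on a log scale for each member, with blue circles for siSCR and red triangles for sin-lncRNA KD libraries. The members fall from TIMP1 at about 3121 to TIMP4 at 0.736 in controls and keep this order in knockdowns.

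Summed per length, the 4 TIMPs gave 3421 ± 56 RPKM in controls and 2467 ± 130 in knockdowns, of which TIMP1 held 91.2% ± 0.1 and 91.9% ± 0.5 (SD, n = 3). The 6 MMPs gave 2357 ± 196 and 2232 ± 105 RPKM. MMP1 held 67.6% ± 2.5 of the MMP sum in controls and 69.5% ± 2.3 in knockdowns. The sum of TIMPs divided by the sum of MMPs was 1.63, 1.35 and 1.39 in control replicates 1, 2 and 3 and 1.05, 1.24 and 1.03 in knockdown replicates 1, 2 and 3. Each knockdown library had a lower value than each control. These are sums of RNA levels, and neither protein nor enzyme activity was analysed here.

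Ratios within a library do not depend on how libraries are scaled, and 7 pairs were compared, chosen after the values had been seen. The ratio of MMP2 to TIMP2 per length was 1.22 ± 0.04 in controls and 2.71 ± 0.22 in knockdowns (SD, n = 3), a log2 change of 1.15. The ratio of MMP14 to TIMP2 went from 4.01 ± 0.09 to 6.32 ± 0.56, a log2 change of 0.65. That of MMP2 to MMP14 went from 0.303 ± 0.009 to 0.429 ± 0.005, a log2 change of 0.50. The MMP2, MMP14 and TIMP2 transcripts, whose proteins act together at the cell surface, thus shifted by unequal amounts.

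TIMP2 also dropped against the other inhibitors. Its ratio to TIMP1 went from 0.0452 ± 0.0004 to 0.0322 ± 0.0028 (log2 change -0.49) and its ratio to TIMP3 from 0.893 ± 0.023 to 0.577 ± 0.019 (log2 change -0.63; SD, n = 3). The ratio of TIMP1 to TIMP3 changed less, from 19.2, 19.9 and 20.3 in control replicates 1, 2 and 3 to 17.0, 18.9 and 17.9 in knockdown replicates 1, 2 and 3 (log2 change -0.14). For MMP1 and TIMP1 the ratio was 0.435, 0.562 and 0.540 in control replicates 1, 2 and 3 and 0.743, 0.585 and 0.737 in knockdown replicates 1, 2 and 3. The groups did not overlap for any of the 7 pairs, and each exact permutation test, two-sided, gave p = 0.1 (0.1 after adjustment over the pairs). This is the smallest p the design allows and misses a threshold of 0.05. Among single genes tested 51.1% did not overlap between groups, and the share over all possible pairs is not known here.

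**Figure D4:**
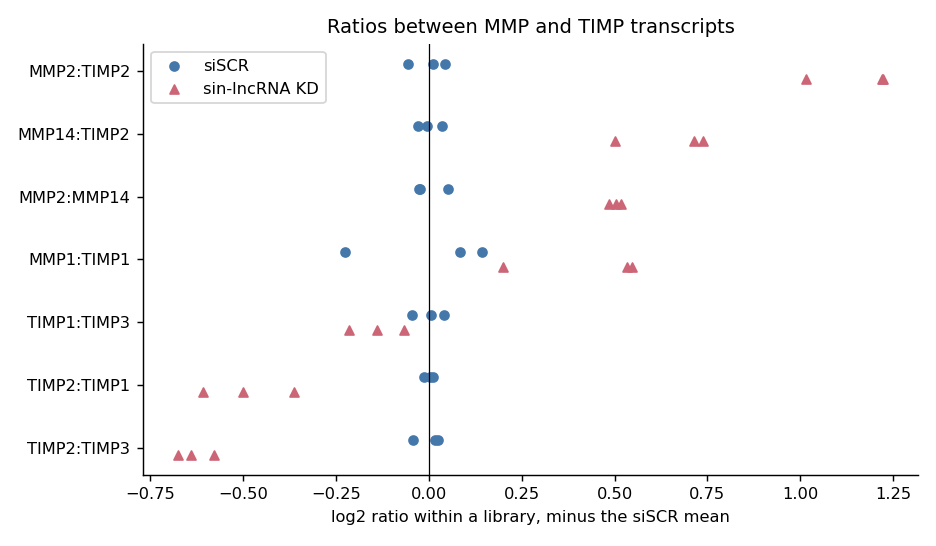
The horizontal axis gives the log2 ratio of 2 transcripts within each library after the siSCR mean is taken off, with blue circles for siSCR and red triangles for sin-lncRNA KD. Knockdown libraries lie to the right for the 4 ratios of MMPs to other members and to the left for the 3 ratios between TIMPs.

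Of the 18 MMPs outside the members, 6 had enough reads to be tested, and 3 of these rose while 0 fell. Of all genes tested 41.0% were called in either direction, and the 3 called of 6 lie near this share. The share that rose was 17.5%, and whether so few genes differ from it in direction was not tested. MMP11, a stromelysin found in stromal cells around tumours, had 19.3, 12.2 and 14.6 RPM in control replicates 1, 2 and 3 and 36.3, 45.9 and 40.5 RPM in knockdown replicates 1, 2 and 3. Its log2 fold change was 1.43 (SE 0.14; limma, adjusted p = 2.05e-05). MMP15, a membrane protease, went from 6.21 ± 0.16 to 12.4 ± 1.6 RPM (log2 fold change 0.99, SE 0.10; limma, adjusted p = 2.76e-05). MMP19, which is secreted, went from 13.6 ± 1.1 to 20.1 ± 0.8 RPM (log2 fold change 0.56, SE 0.07; SD, n = 3; limma, adjusted p = 0.000168). In all 3 the knockdown libraries lay above all controls, where 51.1% of all genes tested did not overlap between groups. MMP17 (log2 fold change -0.24, SE 0.19) and MMP24 (0.44, SE 0.30) did not pass the test, but both did without control replicate 2, at -0.46 and 0.75, with adjusted p in limma of 0.0321 and 0.0499. The gelatinase MMP9, often studied with MMP2, had at most 2 reads in any library.

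FURIN and the plasminogen activators stand in the next list, since proteases of this group remove prodomains of MMPs directly or through plasmin. PLG, the gene of the plasmin precursor, had 1 to 5 reads per library and was not tested. Of the 9 genes reported from this activation list 6 were tested, and 3 fell while 0 rose, with a median log2 fold change of -0.18. The share called over all genes tested in either direction was 41.0%, and the 3 called of 6 lie near it. The share lower was 23.5%, and whether so few genes differ from it in direction was not tested. FURIN, a convertase that processes MMP14, went from 258 ± 12 to 168 ± 11 RPM (log2 fold change -0.62, SE 0.05; limma, adjusted p = 9.66e-06). PLAT, the tissue plasminogen activator, went from 947 ± 117 to 662 ± 10 RPM (log2 fold change -0.51, SE 0.07; SD, n = 3). PLAU, the urokinase plasminogen activator, went from 1902 ± 32 to 1591 ± 58 RPM (log2 fold change -0.26, SE 0.04; limma, adjusted p = 0.000654). In all 3 the knockdown libraries lay below all controls, where 51.1% of all genes tested did not overlap between groups.

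Among 14 other inhibitors, binding partners and clearance genes, 11 were tested, 5 rose and 3 fell, with a median log2 fold change of 0.15. Over all genes tested 41.0% were called, and 48.5% of those with a mean of at least 50 normalized reads. CD44, a hyaluronan receptor that docks MMPs at the cell surface, went from 1399 ± 34 to 647 ± 28 RPM (log2 fold change -1.11, SE 0.04; limma, adjusted p = 5.57e-08). TFPI2, a matrix-bound serine protease inhibitor, went from 324 ± 61 to 172 ± 4 RPM (log2 fold change -0.90, SE 0.11). CD63, a tetraspanin that binds TIMP1, fell by 0.12 on the log2 scale (limma, adjusted p = 0.0471), and lost its call in 10 of 17 alternative fits, with adjusted p-values in limma from 0.0364 to 0.24. SPOCK1, a matrix proteoglycan, went from 26.5 ± 2.2 to 51.3 ± 1.2 RPM (log2 fold change 0.95, SE 0.07; SD, n = 3). The integrin subunit ITGB3 rose by a log2 fold change of 0.56 and the protease trap A2M by 0.62, the latter on 2.00 ± 0.40 RPM in controls. Without control replicate 3 A2M was at 0.46 and was no longer called (limma, adjusted p = 0.0521).

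All 7 genes of the list of TIMP3 targets and partners were called, 5 higher and 2 lower, with a median log2 fold change of 0.72. The background was 41.0% of all genes tested, or 48.5% at a mean of at least 50 normalized reads, with 17.5% of all genes higher. ADAM12, a membrane protease that TIMP3 inhibits, went from 8.61 ± 1.97 to 59.2 ± 3.1 RPM (log2 fold change 2.80, SE 0.13; limma, adjusted p = 1.14e-07). ADAM17, which sheds TNF and growth factor precursors and is blocked by TIMP3, went from 28.7 ± 1.4 to 58.4 ± 0.8 RPM (log2 fold change 1.02, SE 0.05; SD, n = 3). ADAMTS5, an aggrecanase, rose by 0.74 (SE 0.16), from a low 1.68 ± 0.02 RPM. ADAMTS1 fell by 0.94 and ADAMTS4, another aggrecanase, by 0.50 on the log2 scale. TIMP3 itself was lower in the same libraries, at 80.0% of control.

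Matrix proteins that MMPs cut moved in both directions: of 11 tested, 7 rose and 3 fell, with a median log2 fold change of 0.38. Among all genes tested 17.5% rose and 23.5% fell, and 48.5% were called at a mean of at least 50 normalized reads. The chains of basement membrane collagen COL4A1 (582 ± 31 to 1314 ± 51 RPM) and COL4A2 (587 ± 11 to 1345 ± 111 RPM) had log2 fold changes of 1.18 and 1.19. ELN, the gene of elastin, rose from 2.93 ± 0.30 to 8.87 ± 0.55 RPM. The chains of fibrillar collagen I, the main substrate of MMP1, went the other way: COL1A1 from 6617 ± 460 to 3599 ± 223 RPM and COL1A2 from 3695 ± 90 to 2167 ± 41 RPM (SD, n = 3). Their log2 fold changes were -0.88 and -0.77, with adjusted p in limma of 2.01e-06 and 3.76e-07. COL3A1, a chain of another fibrillar collagen, rose from 1555 ± 101 to 2015 ± 72 RPM (log2 fold change 0.38, SE 0.05; SD, n = 3; limma, adjusted p = 0.000228). DCN, the small proteoglycan decorin, fell by 0.30 on the log2 scale.

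AP-1 and ETS factors bind the promoters of several MMP genes and of TIMP1. Of 12 such factors 2 rose, 3 fell and 7 did not pass the test, with a median log2 fold change of -0.01. The 5 called of 12 lie near the 41.0% called over all genes tested. FOSL2 went from 27.4 ± 1.5 to 42.5 ± 1.6 RPM (log2 fold change 0.63, SE 0.06; limma, adjusted p = 1.44e-05) and ETS1 from 95.1 ± 5.2 to 121 ± 2 RPM (log2 fold change 0.35, SE 0.05). JUN went from 218 ± 33 to 160 ± 15 RPM (log2 fold change -0.44, SE 0.10; SD, n = 3), ETV1 by -0.33 and FOSL1 by -0.24. JUN and FOSL1 were not called when the intensity trend was left out of the variance model. The list gives no common direction.

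**Figure D5:**
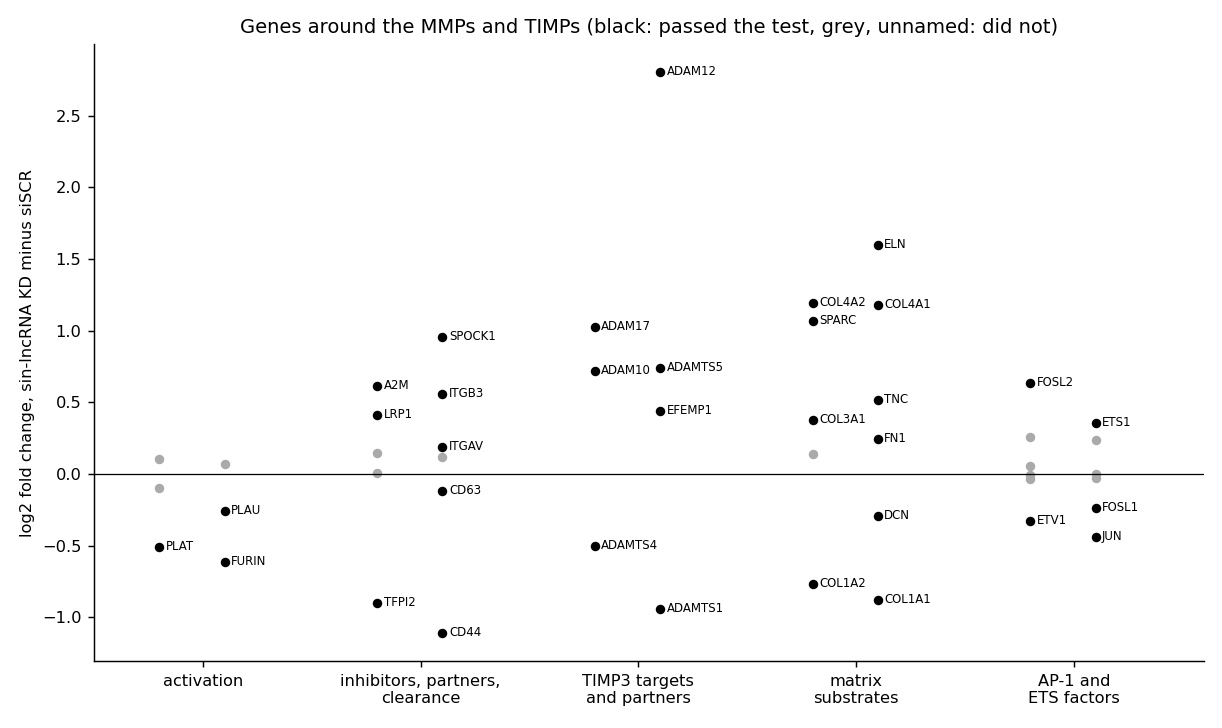
Each point is a gene of 5 lists around the MMPs and TIMPs, and the vertical axis gives its log2 fold change; black points passed the test and are named, and grey points did not pass. ADAM12 lies highest at 2.80 and CD44 lowest at -1.11, and each list other than activation holds genes called in both directions.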

How the data were processed

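PolyA RNA of 6 libraries was sequenced as single 50 bp reads, per the labels' protocols. The submitters' processing notes name Bowtie2, featureCounts and the build hg19, with no versions; annotation and strand setting are not given in the sources used here. The authors deposited 1 table of 57819 genes whose values are log2 CPM. This form was inferred: undoing an offset of 0.5 reads and an effective library size gave whole reads (within 0.01) for 100% of values. RPM here is those reads over the effective size. RPKM also divides by exon length from GENCODE 29 (GRCh38), matched by gene ID.

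The deposited log2 values were fitted with limma 3.58.1 (R 4.3.3; lmFit, eBayes with intensity trend, group as the only term, two-sided) for the 19048 genes averaging 10 or more normalized reads. Benjamini-Hochberg adjusted p-values were called at 0.05 over all of them. Fold changes are on this log2 scale and understate changes of genes with few reads. Exact permutation tests compared 3 libraries with 3. The fit was also run on simulated counts of 19048 genes with 200 changed, for knockdown against control. There 51% of changes of 0.5 and 85% of changes of 1 (log2) were called, and 4.23% of calls were unchanged genes. Every gene in those counts was given the same dispersion, whereas the spread between replicates differed by gene in the deposited data. In the deposited data 41.0% of genes tested were called, a larger share than was changed in those counts. The shares of changes found and of wrong calls in the deposited data were not tested.

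The members and the 7 lists (75 genes) were chosen with earlier results of these data known. Named in the text are all members, tested MMPs, genes that overlap TIMP genes and the targeted lncRNA. Up to 3 called rises and 3 falls per list are named too. VWF, KRT5, MMP9, SYN3, WTAPP1, COL3A1, PLG and the cluster's untested genes were added after their values were seen. The endothelial marker PECAM1 was not analysed here. A gene of the activation list is not reported here and was left out of its counts. Libraries were counted once each, since replicates differed by 2.83 to 11.1 in chi-square per degree of freedom. Alternatives were other offsets, filters, scalings and variance models, a replicate block, each library left out, and, added after seeing the data, thinning to the smallest total.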

Additional observations from a re-analysis of the deposited data

How the results depend on the processing

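The 5 called members kept direction and call under each of the 17 alternatives. Their log2 fold changes ranged from -0.99 to -0.88 for TIMP2, -0.51 to -0.44 for TIMP1, -0.34 to -0.29 for TIMP3, -0.32 to -0.22 for MMP14 and 0.18 to 0.26 for MMP2. The number of members called was 5 to 6 with a library left out. TIMP4 was called without the intensity trend (-0.34; limma, adjusted p = 0.00988). The number of genes changed, as called by limma, ran from 5803 (without control replicate 3) to 7887, and with libraries thinned to the smallest total 7321 genes and 5 members were called. Uncalled members reversed sign in some fits without gaining a call: MMP3 was at 0.00481 with library totals and 0.032 under quantile normalization, and MMP10 at 0.044 under quantile normalization. With a library left out MMP1 ran from -0.14 to 0.031, MMP3 from -0.18 to 0.11, MMP10 from -0.089 to 0.011 and MMP8 from -0.24 to 0.19. MMP8 was at 0.00987 with an offset of 5 reads. The cause was not tested.

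Among the lists, the other MMPs had 3 to 5 called genes with a library left out, the AP-1 and ETS factors 3 called genes without the intensity trend, and the genes overlapping TIMPs 2 called genes with an offset of 5 reads; the cause was not tested. Quantile normalization moved the number of genes changed to 3784 higher and 3899 lower. Replicate numbers did not pair the libraries: same-numbered deviations had correlations of -0.15, -0.18 and 0.07. The highest correlations lay across numbers, at 0.20 for control replicate 2 with knockdown replicate 1 and 0.17 for control replicate 1 with knockdown replicate 2. Whether libraries with different numbers share a batch was not tested. A fit with a block by replicate number, which does not cover pairs across numbers, called 6454 genes and 5 members, and TIMP2 was at -0.95. TIMP4 and MMP8 rest on few reads, with 21 in the library that had fewest of each.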
